A study of Homo sapiens with 4 samples.

Results

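Heat shock proteins and chaperonins are the proteins that help other proteins fold, keep them from clumping and hand them on for repair or degradation. Their genes were examined in OVCAR3, a long-established human line grown from high-grade serous ovarian cancer. The genes were chosen by symbol: HSP90AA1, HSP90AB1 and HSP90B1, the HSPA, HSPB, HSPD, HSPE and HSPH genes, the DNAJA, DNAJB and DNAJC genes, CCT2 to CCT8 with their lettered copies, and TCP1, leaving out numbered pseudogenes. HSPA7 and DNAJB3, annotated as pseudogenes, carry no such number in their symbols and were kept. This gave 81 of the 62696 genes listed, and no expression value entered the choice. By class they were 3 HSP90 genes, 13 HSP70 genes, 3 HSP110 genes, 8 small heat shock protein genes, 2 mitochondrial chaperonin genes, 9 genes of the cytosolic chaperonin TRiC/CCT and 43 J-domain genes (4 of family A, 13 of family B and 26 of family C). The comparison used 4 libraries of total RNA depleted of ribosomal RNA. The 3 knockdown libraries (KD 1, 2 and 3) came from an OVCAR3 derivative with a short hairpin RNA against the pseudogene ANAPC1P2, and the 1 wild-type library (WT) came from OVCAR3 without it. All cells were kept in RPMI medium with fetal bovine serum. The labels name no library with a non-targeting hairpin, so carrying a hairpin and losing ANAPC1P2 cannot be told apart. They call the knockdown libraries sets and do not say whether these are separate cultures, hairpins or clones. The p-values therefore rest on the spread among these libraries only, and that spread may be technical.

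As background, HSP70 proteins bind short exposed stretches of unfolded proteins in a cycle driven by ATP. J-domain proteins deliver the clients and trigger ATP hydrolysis, and HSP110 proteins exchange the nucleotide so that the client is released. HSP90 takes over late folding steps of kinases and steroid receptors, TRiC encloses actin and tubulin in a chamber, and HSPD1 with its lid HSPE1 does the same inside mitochondria. Small heat shock proteins hold unfolded proteins without using ATP. The transcription factor HSF1 drives many of these genes after heat or protein damage by binding heat shock elements, which are inverted repeats of the unit GAA, and many tumours keep high chaperone levels.

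The promoter stretches that hold a heat shock element are shown because HSF1 binds such letters, and the genes that have them can be followed through the values below. In RefSeq promoters on GRCh38.p14, which run from 250 bases before to 50 bases after each start site, 71 of the 81 genes were matched. Elements of 3 units were searched on both strands as GAANNTTCNNGAA or TTCNNGAANNTTC, and overlapping matches were merged. They were found in 7 of these 71 genes (9.86%) and in 166 of 27305 genes in the promoter table (0.608%). Elements of 2 units, GAANNTTC or TTCNNGAA, were found in 26 of the 71 genes (36.6%) and in 16.2% of all genes. Each element of 3 units contains elements of 2 units. The 9 stretches with elements of 3 units follow, 5′ to 3′ on the strand of the gene, with the element in capitals.
DNAJA1 (chr9:33025268-33025296, plus strand, element from 4): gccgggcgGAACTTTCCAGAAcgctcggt
DNAJB6 (chr7:157336865-157336893, plus strand, element from -131): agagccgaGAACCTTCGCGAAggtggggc
HSP90AA1 (chr14:102087112-102087140, minus strand, element from -88): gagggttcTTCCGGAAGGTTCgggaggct
HSP90AB1 (chr6:44247770-44247798, plus strand, element from -165): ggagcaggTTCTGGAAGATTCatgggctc
HSP90AB1 (chr6:44247823-44247851, plus strand, element from -112): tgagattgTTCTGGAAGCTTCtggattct
HSPA6 (chr1:161524458-161524486, plus strand, element from -74): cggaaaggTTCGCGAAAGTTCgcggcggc
HSPA8 (chr11:123062171-123062199, minus strand, element from -55): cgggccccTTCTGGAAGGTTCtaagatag
HSPA8 (chr11:123062346-123062374, minus strand, element from -230): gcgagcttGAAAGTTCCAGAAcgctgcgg
HSPD1 (chr2:197500062-197500090, minus strand, element from -245): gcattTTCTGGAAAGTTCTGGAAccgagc
The element lay upstream of the start site from which it is numbered in all of these except DNAJA1, where it began at base 4 of the transcript. HSP90AA1, HSP90AB1 and HSPD1 have other listed start sites, from which these stretches lie downstream. The stretches of DNAJA1, HSP90AA1, HSPA8 and HSPD1 overlap annotated exons of these genes, and that of HSPD1 also an exon of HSPE1. HSPD1 holds 2 overlapping elements that make up 1 capital run. Of the 7 genes, 6 were called higher in KD (limma adjusted p under 0.05, a test described below, by which 31.4% of all genes tested were called higher), and HSPA6 was too low to be tested. By the same test, 53 of the 69 chaperone genes tested were called higher. Whether the genes with an element differ from the other chaperone genes was not tested. DNAJB6 was 1 of the 6, and its call was not kept under every alternative processing described below. A match says only that the letters are there, and binding was not measured.

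KD 1, 2 and 3 held 48443589, 56216398 and 42871815 counted reads, and WT held 27868718. Reads fell in 31014 to 32823 genes in KD and in 36832 genes in WT, although WT was the shallowest library. ANAPC1P2, the targeted transcript, had 0, 11 and 8 reads in KD 1, 2 and 3 and 14 in WT, too few to check the knockdown closely. The WT library also held reads of genes that mark other cell types. All 16 epithelial and serous carcinoma markers had reads in every library, with a summed level of 138516 to 151499 in KD and 578325 in WT, in normalized counts, and 10 of them were called higher and 4 lower in KD. MUC16 carried this difference, and the other 15 summed to 111759 to 120773 in KD and 119435 in WT. Of 5 red blood cell genes, 4 were tested and all 4 were lower in KD, with a sum of 1.55 to 3.79 in KD and 14702 in WT, and HBA1, HBA2 and HBB were at 0 in every KD library. Of 9 leukocyte genes, 8 were lower in KD (sum 166 to 178 in KD and 1511 in WT; FCGR3B and LYZ at 0 in KD). Of 7 neural genes, 4 were lower and 1 higher (sum 2269.9 to 3315 in KD and 4435 in WT; NEUROD6 at 0 in KD). Of 7 fibroblast genes, 3 of the 5 tested were lower (sum 507 to 634 in KD and 1248 in WT; COL3A1 and ZEB1 at 0 in KD, DCN at 0 in WT). The 4 endothelial genes summed to 229 to 310.2 in KD and 413 in WT. These values move with the contrast between KD and WT, and their part in the chaperone results was not tested. With a single WT library there is no comparison without it. In such bulk RNA, fewer cells of a type and less RNA per cell cannot be told apart.

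Most chaperone genes were higher in the knockdown libraries. Of the 81 genes, 69 had a mean of at least 10 normalized read counts over the 4 libraries and were tested with limma on log2(normalized count + 1). At an adjusted p under 0.05, 53 were higher in KD, 5 were lower and 11 were not called. Over all 23344 genes tested, 31.4% were called higher and 36.3% lower. Among the 14464 protein-coding genes tested, these shares were 45.9% and 24.7%. The median log2 difference, KD minus WT, was 1.11 over the 69 chaperone genes, 0.28 over protein-coding genes and -0.28 over all genes. All 3 KD libraries lay above WT for 58 chaperone genes and below it for 9, against 40.0% and 52.2% of all genes and 55.7% and 36.7% of protein-coding genes. Together the 81 genes held 1.73%, 1.59% and 1.67% of all reads counted in KD 1, 2 and 3 and 0.814% in WT. The spread came from the 3 KD libraries, with 2 residual degrees of freedom, and the lone WT library is assumed to vary like them. The deposited scaling sets the zero of these differences. With equal library totals, the median over the genes then tested was -0.89, against -0.28,, the chaperone calls became 36 higher and 15 lower, and all genes gave 4701 higher and 12735 lower. With the trend on exonic length removed, the chaperone calls became 40 higher and 11 lower.

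**Figure D1:**
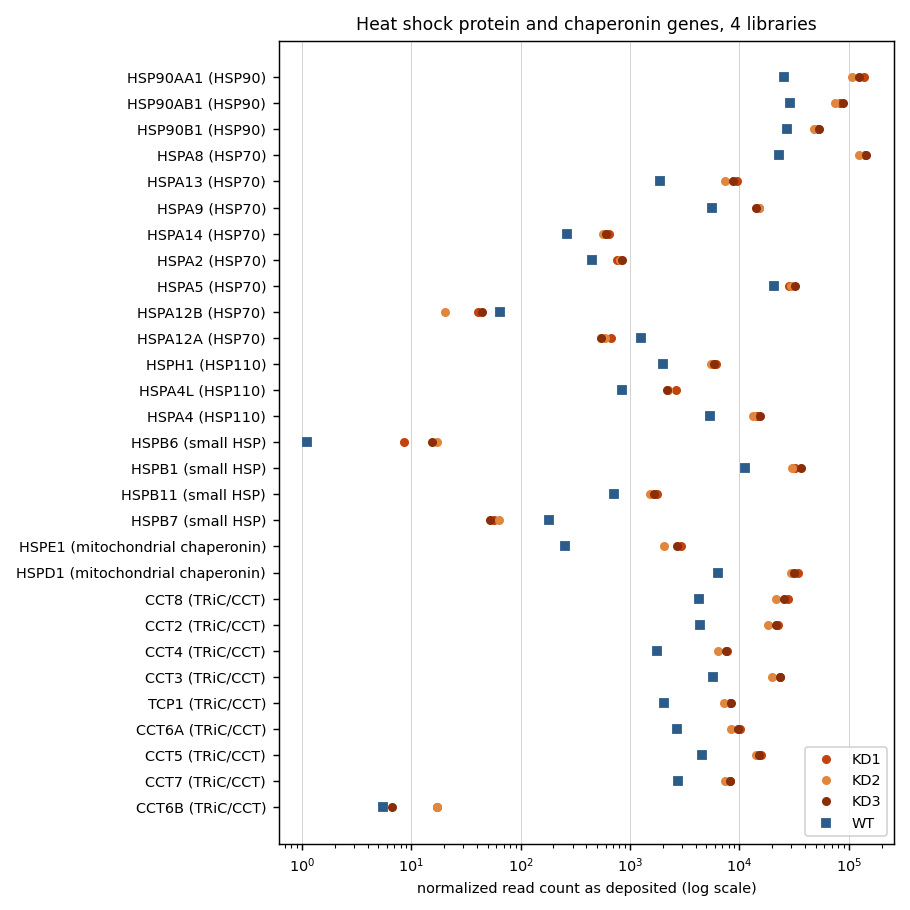
Normalized read counts of the tested chaperone genes other than the J-domain genes, on a log axis, with 1 point per library and no error bars. The points of KD 1, 2 and 3 lie to the right of the WT square for all genes shown except HSPA12A, HSPA12B and HSPB7.

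The class medians had a wide range (the plot of differences by class). The log2 median was 2.82 for the mitochondrial chaperonin pair, 1.95 for TRiC, 1.51 for HSP90, 1.48 for HSP110 and 1.47 for J-domain family A. It was 1.38 for the 4 small heat shock protein genes tested and 1.01 for the 8 HSP70 genes tested. J-domain families C and B stood at 0.62 and 0.46. With equal library totals the first 5 classes kept medians of 2.25, 1.38, 0.95, 0.91 and 0.90, while family C came to 0.05 and family B to -0.10. The classes differ in size, and these medians are a description with no test between them.

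**Figure D2:**
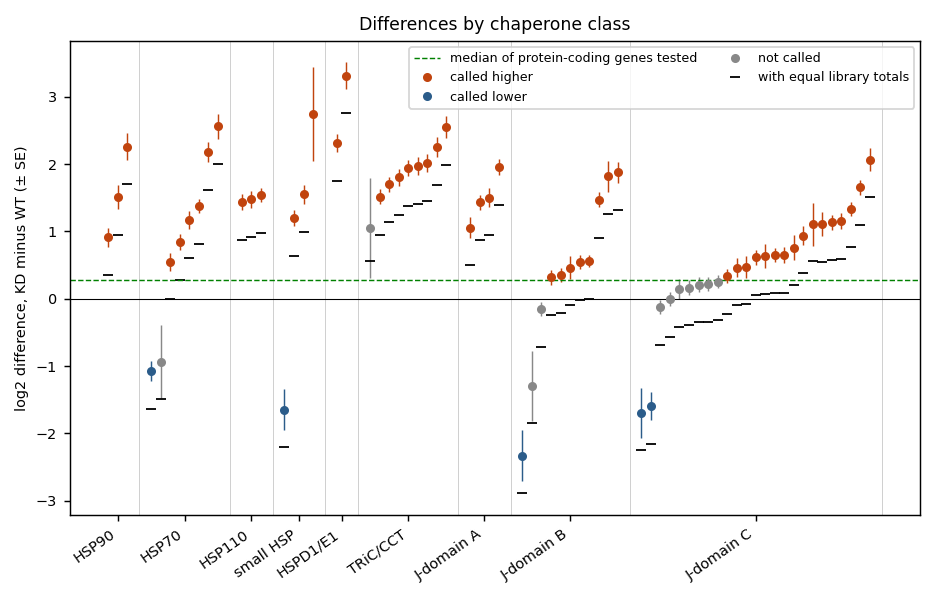
Log2 difference, KD minus WT, with its standard error for each tested chaperone gene by class, coloured by the limma call. Dashes give the value with equal library totals, the dashed line marks the protein-coding median of 0.28, and HSPD1/E1 is the mitochondrial chaperonin pair.

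The HSP90 class holds the inducible cytosolic HSP90AA1, the constitutive cytosolic HSP90AB1 and HSP90B1, which works in the endoplasmic reticulum (ER). All 3 were called higher. HSP90AA1 measured 138074, 107169 and 125611 in KD 1, 2 and 3 and 25644 in WT in normalized counts, a log2 difference of 2.26 ± 0.20 (SE), limma adjusted p = 0.000187. HSP90AB1 measured 84036, 74713 and 88894 in KD 1, 2 and 3 and 28866 in WT (log2 difference 1.51 ± 0.17 (SE), limma adjusted p = 0.000478). HSP90B1 measured 52453, 47891 and 53848 in KD 1, 2 and 3 and 27303 in WT (log2 difference 0.91 ± 0.15 (SE), limma adjusted p = 0.0021). For each gene, every KD library was above WT and the KD range did not reach it. KD lay above WT in this way for 40.0% of all genes tested and 55.7% of protein-coding genes. Per kilobase of exonic length, the WT level of HSP90AB1 (9687) was above those of HSP90AA1 (4886) and HSP90B1 (5815). In KD the corresponding levels were 27701 ± 2418, 23555 ± 2963 and 10947 ± 664 (SD, n = 3). HSP90AA1 lies on chromosome 14, 102080738 to 102139699, minus strand, and HSP90AB1 on chromosome 6, 44246166 to 44253888, plus strand (GRCh38, GENCODE 29). Both carry a 3-unit heat shock element in the stretches shown above, HSP90AA1 1 of them and HSP90AB1 2.

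In the HSP70 class, HSPA8 had the highest level per kilobase of all 81 genes in KD, with 28352 ± 2192 in KD (SD, n = 3) and 4797 in WT. HSPA8 is the constitutive cytosolic HSP70 and lies on chromosome 11, 123057489 to 123063230, minus strand. Its normalized counts were 141527, 125420.4 and 145492 in KD 1, 2 and 3 and 23260.2 in WT, and its log2 difference was 2.56 ± 0.18 (SE), limma adjusted p = 9.22e-05. HSPA13, a microsomal HSP70 relative, measured 9528, 7478 and 8700.3 in KD 1, 2 and 3 and 1876 in WT (log2 difference 2.18 ± 0.15 (SE), limma adjusted p = 7.96e-05). In both genes the lowest KD library was far above WT. HSPA9, the mitochondrial HSP70, measured 15128, 15049 and 14147 in KD 1, 2 and 3 and 5663 in WT (log2 difference 1.38 ± 0.11 (SE), limma adjusted p = 0.000108). HSPA14, a ribosome-associated member, stood at 641, 573 and 603 against 269 (log2 difference 1.17, limma adjusted p = 0.000544). HSPA2, best known from male germ cells, stood at 769, 811 and 843 against 449 (log2 difference 0.85, limma adjusted p = 0.00128; with equal library totals 0.28, adjusted p = 0.0578). No KD value of these genes fell to the WT value. The same held for 40.0% of all genes tested and 55.7% of protein-coding genes.

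HSPA5, the ER-resident HSP70 also called BiP, was the HSP70 gene whose direction depended on scaling. Its normalized counts were 28423, 29888 and 32554 in KD 1, 2 and 3 and 20628 in WT, with a log2 difference of 0.55 ± 0.14 (SE), limma adjusted p = 0.0114 as deposited, and with equal library totals the difference was -0.01. The call was also lost with upper-quartile scaling, with no filter on low values and with the length trend removed. HSPA5 was thus above WT in all 3 KD libraries on the deposited scale but not relative to library totals. HSPA12A, a distant HSP70 relative, was the 1 HSP70 gene called lower: 671, 587 and 547 in KD 1, 2 and 3 and 1263 in WT (log2 difference -1.07 ± 0.15 (SE), limma adjusted p = 0.00108). HSPA12B, its close relative, was low in every library, at 40.8, 20.2 and 44.5 against 64.4, and was not called (log2 difference -0.93, limma adjusted p = 0.166; 0.0277 with the length trend removed). The 5 HSP70 genes below the filter were HSPA1A, HSPA1B, HSPA1L, HSPA6 and HSPA7.

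The inducible HSP70 genes had almost no reads in these files. HSPA1A had 1, 0 and 3 reads in KD 1, 2 and 3 and 0 in WT, and HSPA1B had 1, 0 and 1 against 0. HSPA1A and HSPA1B are near-identical copies: 67.3% and 72.7% of their 100-base stretches occur in another annotated gene. The sources used here do not give how reads that match several genes were counted, so the low values cannot be read as little RNA. HSPA6, a strictly heat-inducible gene that carries a 3-unit element, had 0, 0 and 2 reads in KD and 18 in WT, which was 32.4-fold lower in KD on the deposited scale, with a 95% exact interval of 7.76 to 288. Of its 100-base stretches, 27.6% occur in HSPA7, which had 0 reads everywhere. Such intervals cover counting error only.

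The HSP110 class, the nucleotide exchange factors of HSP70, was called higher as a whole, 3 of 3. HSPH1 measured 6169, 5469 and 5854 in KD 1, 2 and 3 and 2000.4 in WT (log2 difference 1.54 ± 0.11 (SE), limma adjusted p = 8.48e-05). HSPA4L measured 2619, 2252 and 2189 against 843 (log2 difference 1.48 ± 0.13 (SE), limma adjusted p = 0.000169), and HSPA4 measured 14629, 13484 and 15576 against 5361 (log2 difference 1.44 ± 0.12 (SE), limma adjusted p = 0.00014). The 3 log2 differences were close to one another, and every KD library was above WT in each. That was so for 40.0% of all genes tested and 55.7% of protein-coding genes. By the same limma test, 31.4% of all genes and 45.9% of protein-coding genes were called higher.

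The mitochondrial chaperonin genes HSPD1 and HSPE1 encode the folding chamber and its lid. They overlap on opposite strands of chromosome 2, and the annotated HSPD1 span contains that of HSPE1, with HSPD1 at 197486581 to 197516737 on the minus strand and HSPE1 at 197499994 to 197503457 on the plus strand. HSPE1 measured 2908, 2051 and 2724 in KD 1, 2 and 3 and 253 in WT, a log2 difference of 3.32 ± 0.20 (SE), limma adjusted p = 6.83e-05, the largest among the chaperone genes tested. HSPD1 measured 34644, 29494 and 31682 in KD 1, 2 and 3 and 6405 in WT (log2 difference 2.31 ± 0.13 (SE), limma adjusted p = 6.71e-05). The lowest KD library was KD 2 for both, and it remained far above WT. Per kilobase, the HSPD1 to HSPE1 ratio was 5.55, 6.70 and 5.42 in KD 1, 2 and 3 and 11.8 in WT. The levels counted to the 2 genes themselves were thus less unequal in every KD library. HSPE1 itself held 3068, 2639 and 2450 reads in KD 1, 2 and 3 and 228 in WT. Its 26 annotated pseudogene copies together held 111, 131 and 62 reads in KD and 528 in WT, more than the gene itself in WT. Whether reads of HSPE1 were counted to the copies was not tested, and the difference and the ratio leave the copies out. In HSPE1, 6.71% of the 100-base stretches occur elsewhere. Of its exonic bases, 14.2% overlap HSPD1 on the other strand. HSPE1 is also a short gene, and with the trend of differences on exonic length removed its log2 difference was 3.16. The median of the pair was then 2.47, against 2.82 without this step.

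TRiC/CCT is built from 8 different subunits that sit side by side in each ring, and CCT6B is a testis copy of CCT6A. All 8 somatic subunit genes were called higher, with log2 differences from 1.52 (CCT7) to 2.56 (CCT8). CCT8 measured 28138, 21521 and 25634 in KD 1, 2 and 3 and 4242 in WT (log2 difference 2.56 ± 0.16 (SE), limma adjusted p = 7.55e-05). CCT2 measured 22471, 18359 and 21787 against 4353 (log2 difference 2.26), CCT4 7649, 6348 and 7509 against 1764 (log2 difference 2.02) and CCT3 23548, 20125 and 23614 against 5716 (log2 difference 1.97). TCP1, the subunit that gave the complex its name, measured 8249.8, 7240.1 and 8387 against 2058 (log2 difference 1.95). Every KD library lay above WT in these and in the other TRiC genes tested, 9 of 9. The shares were 40.0% of all genes tested and 55.7% of protein-coding genes. For genes called higher they were 31.4% and 45.9%. CCT6A measured 10059, 8356 and 9818 against 2687 (log2 difference 1.80), CCT5 15813, 14194 and 15000.4 against 4605 (log2 difference 1.70) and CCT7 8287, 7340.3 and 8228 against 2775 (log2 difference 1.52). The limma adjusted p of the 8 genes ran from 6.93e-05 to 9.86e-05. CCT6B was near the filter with 18, 22 and 6 reads in KD and 5 in WT. It was not called (log2 difference 1.05, limma adjusted p = 0.239). Of CCT5's exonic bases, 30.1% overlap a gene on the other strand, and the sources used here do not give the strand setting of the counting.

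The 8 subunits enter the complex in equal numbers, but their transcripts were unequal and the balance differed between KD and WT. As a share of the summed level per kilobase of the 8 genes, CCT8 took 25.6% ± 1.05 (SD, n = 3) in KD and 18.2% in WT. CCT2 took 16.5% ± 0.156 (SD, n = 3) in KD and 14.4% in WT. CCT7 took the smaller share in KD, with 7.58% ± 0.259 (SD, n = 3) in KD and 11.1% in WT. CCT5 took 8.81% ± 0.466 (SD, n = 3) in KD and 11.3% in WT, and CCT6A took 8.24% ± 0.0519 (SD, n = 3) in KD and 9.85% in WT. CCT3 took 19.1% ± 0.398 (SD, n = 3) in KD and 20.4% in WT, CCT4 8.65% ± 0.0842 (SD, n = 3) in KD and 8.92% in WT and TCP1 5.53% ± 0.178 (SD, n = 3) in KD and 5.97% in WT. CCT8 and CCT2 thus lay above their WT share in every KD library, and all the other subunit genes below it. The shares add up to a fixed total, so larger shares of some genes make those of others smaller. CCT3 ranked first in WT and CCT8 first in every KD library. The highest share was 5.03, 4.39 and 4.51 times the lowest in KD 1, 2 and 3 and 3.41 times in WT. Shares do not depend on library scaling, but 3 libraries against 1 cannot reach an exact one-sided p below 0.25, so these stand as values.

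**Figure D3:**
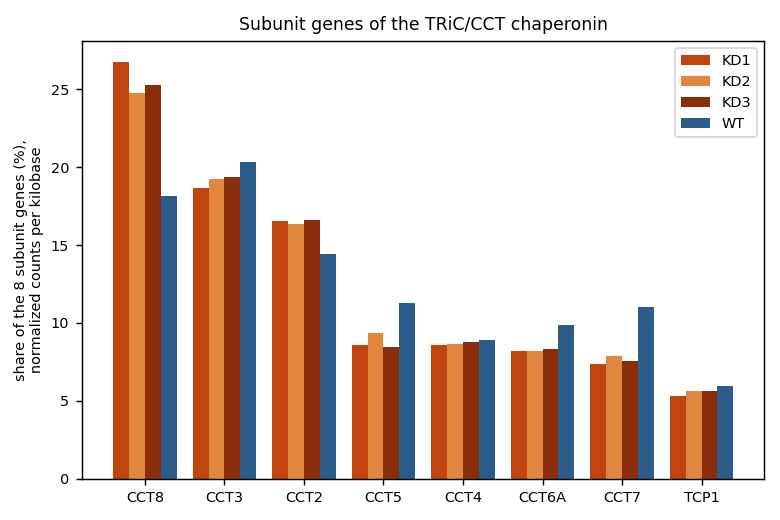
Share, in percent, of the summed normalized counts per kilobase of the 8 TRiC subunit genes taken by each, with 1 bar per library. CCT8 and CCT2 are higher in every KD library than in WT, and all the other subunit genes are lower.

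J-domain proteins form the largest group, and their differences varied by family. Of 43 genes, 40 were tested, 28 were called higher, 3 lower and 9 were not called. By the same test, 31.4% of all genes and 45.9% of protein-coding genes were called higher. With equal library totals, 14 of the J-domain genes were called higher and 13 lower, and their median log2 difference was 0.03. Family A, the closest relatives of the bacterial DnaJ, was called higher in full. DNAJA1, a main partner of HSPA8, measured 12469, 10965 and 12486 in KD 1, 2 and 3 and 3069 in WT (log2 difference 1.96 ± 0.12 (SE), limma adjusted p = 6.83e-05). DNAJA2 measured 3044, 2927 and 3638 against 1124 (log2 difference 1.50, limma adjusted p = 0.000217), and the mitochondrial DNAJA3 1261, 1208 and 1274 against 462 (log2 difference 1.43, limma adjusted p = 0.000104). DNAJA4 was the smallest of the 4, at 344, 371 and 377 against 174 (log2 difference 1.06, limma adjusted p = 0.00164). All 3 KD libraries exceeded WT for each. This was also so for 40.0% of all genes tested and 55.7% of protein-coding genes.

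In family B, 8 of the 11 genes tested were called higher and 1 lower. Over protein-coding genes these shares were 45.9% and 24.7%, and over all genes tested 31.4% and 36.3%. The largest rises were DNAJB9, an ER partner of HSPA5, at 2009, 1721 and 2243 in KD 1, 2 and 3 and 538 in WT (log2 difference 1.88 ± 0.16 (SE), limma adjusted p = 0.000142); DNAJB4 at 1391, 912 and 1102 against 317 (log2 difference 1.82, limma adjusted p = 0.000674); and DNAJB1, the main heat-inducible J-domain protein of the cytosol, at 5939.9, 5273 and 5981 against 2065 (log2 difference 1.47, limma adjusted p = 0.000107). In family B, all 3 KD libraries lay above WT for 8 of the 11 genes tested. The shares were 40.0% of all genes tested and 55.7% of protein-coding genes. The 3 genes with the largest rises were picked by size, so their place above WT follows from the choice. The other 5 called genes had log2 differences from 0.32 to 0.56. With equal library totals only these 3 remained called higher, with 4 lower. DNAJB6, named here for its 3-unit element after its values were seen, measured 4691, 4549 and 4849 against 3183 (log2 difference 0.56; -0.0023 with equal totals).

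The other 3 family B genes tested lay below WT. DNAJB7 measured 57.8, 56.7 and 35.6 in KD 1, 2 and 3 and 249.9 in WT, a log2 difference of -2.33 ± 0.38 (SE), limma adjusted p = 0.00232, and 24.2% of its exonic bases overlap XPNPEP3 on the other strand. DNAJB13, a sperm flagellum gene, stood at 19.0, 39.6 and 34.5 against 74.4 and was not called (log2 difference -1.30, limma adjusted p = 0.0632). DNAJB13 was called lower in 5 of the 14 alternatives, with adjusted p from 0.00891 to 0.0492. DNAJB11, an ER partner of HSPA5, stood at 1318, 1199.8 and 1204 against 1376 and was not called (log2 difference -0.15, limma adjusted p = 0.255), and its sign turned to 0.13 with median-of-ratios scaling. DNAJB11 was called lower with upper-quartile scaling (-0.62), with equal library totals (-0.71) and with the length trend removed (-0.64). DNAJB13 and DNAJB11 had every KD value below WT.

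Family C holds J-domain proteins with many other parts and tasks. Of 25 genes tested, 16 were called higher and 2 lower. Over all genes tested the shares were 31.4% and 36.3%, and over protein-coding genes 45.9% and 24.7%. The 3 largest rises, picked by size, come first. DNAJC12 measured 707, 617 and 792 in KD 1, 2 and 3 and 167 in WT (log2 difference 2.07 ± 0.17 (SE), limma adjusted p = 0.00014). DNAJC8, a splicing-associated protein, measured 4286, 4127 and 4744 against 1391 (log2 difference 1.65, limma adjusted p = 8.12e-05), and DNAJC21, which acts in ribosome maturation, 4554, 4219 and 4627 against 1766 (log2 difference 1.34, limma adjusted p = 0.000105). The genes called lower were DNAJC15, a mitochondrial import factor, at 31.3, 31.9 and 35.6 in KD 1, 2 and 3 and 109 in WT (log2 difference -1.70 ± 0.37 (SE), limma adjusted p = 0.00704), and DNAJC17 at 114, 126 and 126 against 369.9 (log2 difference -1.60 ± 0.21 (SE), limma adjusted p = 0.000896). DNAJC17 overlaps genes on the other strand over 26.1% of its exonic bases. DNAJC11, of the mitochondrial inner membrane organisation, was among the 2 highest of the family per kilobase and was not called, at 5120.1, 5381 and 5649 against 5836 (log2 difference -0.12, limma adjusted p = 0.331; 0.16 with median-of-ratios scaling). DNAJC11 was called lower with upper-quartile scaling (-0.58), with equal library totals (-0.68) and with the length trend removed (-0.63). With equal library totals, 7 genes of family C were called higher and 9 lower.

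Small heat shock proteins were few and mixed. HSPB1, also called HSP27, was the only abundant one and measured 32663, 30358 and 36489 in KD 1, 2 and 3 and 11271 in WT (log2 difference 1.55 ± 0.14 (SE), limma adjusted p = 0.000214), with 20299.7 ± 1895 in KD (SD, n = 3) and 6898 in WT per kilobase. HSPB11, which despite its symbol acts in intraflagellar transport, measured 1775, 1543 and 1673 against 723 (log2 difference 1.20, limma adjusted p = 0.000255). HSPB7, a gene of heart and muscle, was lower at 56.9, 63.7 and 52.3 in KD 1, 2 and 3 and 182 in WT (log2 difference -1.65 ± 0.30 (SE), limma adjusted p = 0.00351). HSPB1 and HSPB11 were above WT in every KD library and HSPB7 below it in every one. HSPB6 had 9, 22 and 14 reads in KD and 1 in WT, a ratio of 12.5 on the deposited scale with a 95% exact interval of 2.13 to 505 (limma adjusted p = 0.0131; DESeq2 adjusted p = 0.0756; 0.0534 with no filter on low values), and 38.2% of its exonic bases overlap a gene on the other strand. HSPB8 was below the filter with 2, 0 and 1 reads in KD and 10 in WT, 12.0-fold lower (95% exact interval 3.09 to 67.9). HSPB3 had 6, 8 and 2 reads in KD and 0 in WT. Its KD mean was 1.41-fold a floor of 3 reads in the WT library, and its 95% exact interval began at 1.07.

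The remaining genes below the filter were at or near the floor. HSPB2 had 0, 3 and 0 reads in KD and 0 in WT, HSPB9 had 4, 0 and 6 against 2, and HSPA1L had 0, 10 and 0 against 8. DNAJB3 had 5, 6 and 0 reads against 6 and DNAJC28 4, 10 and 16 against 3, while DNAJB8 had 0 in every library. For a gene with 0 reads, 3 reads correspond to 0.926 normalized counts over the 3 KD libraries together and to 3.33 in WT. Differences in these genes were not detectable at this depth.

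The share of the library taken by each class sets every library to the same total, as the alternative with equal library totals does, and so differs from the deposited scale. HSP90 genes took 0.598%, 0.526% and 0.563% of all reads counted in KD 1, 2 and 3 and 0.264% in WT. HSP70 genes took 0.428%, 0.412% and 0.426% of all reads counted in KD 1, 2 and 3 and 0.173% in WT, and TRiC genes took 0.271%, 0.237% and 0.252% of all reads counted in KD 1, 2 and 3 and 0.0911% in WT. The 2 mitochondrial chaperonin genes took 0.0818%, 0.0722% and 0.0722% of all reads counted in KD 1, 2 and 3 and 0.0215% in WT. HSP110 genes took 0.0510%, 0.0485% and 0.0496% in KD 1, 2 and 3 and 0.0265% in WT. Small heat shock protein genes took 0.0752%, 0.0732% and 0.0802% in KD 1, 2 and 3 and 0.0394% in WT. Each of these classes held a larger share in every KD library than in WT. On this scale family C of the J-domain proteins took 0.137%, 0.138% and 0.138% in KD and 0.137% in WT, which is nearly the same share, whereas its summed deposited counts were 63087, 60332 and 65577 in KD and 42491 in WT. Family B took 0.0530%, 0.0509% and 0.0505% against 0.0454%, and family A 0.0373%, 0.0354% and 0.0373% against 0.0156%.

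**Figure D4:**
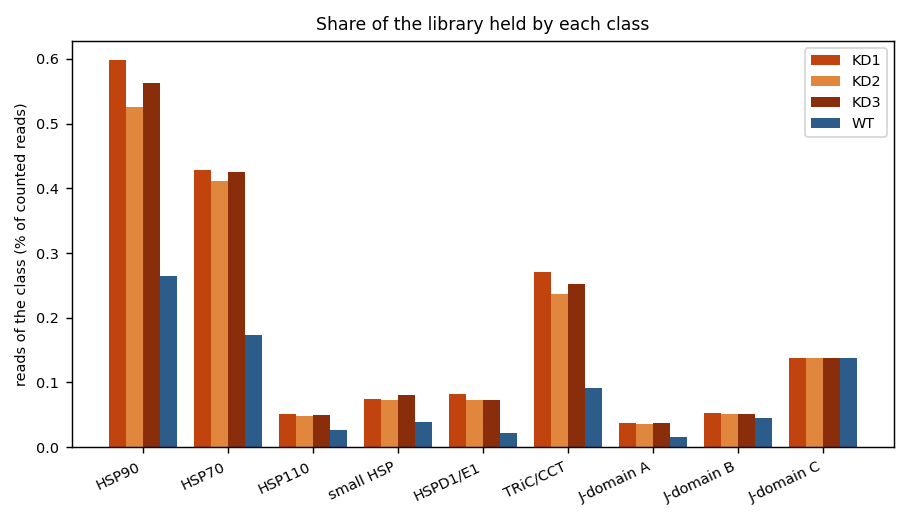
Reads of each class divided by all counted reads, in percent, with 1 bar per library. Every class other than J-domain family C is higher in all 3 KD libraries than in WT, and family C is nearly level. HSPD1/E1 is the mitochondrial chaperonin pair.

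Ratios between partner chaperones, taken per kilobase within a library, also do not depend on scaling. The ratio of the cytosolic HSPA8 to the ER protein gene HSPA5 was 4.01, 3.38 and 3.60 in KD 1, 2 and 3 and 0.909 in WT. HSPA8 to the mitochondrial HSPA9 gave 15.9, 14.2 and 17.5 in KD 1, 2 and 3 and 6.99 in WT. In both, the KD libraries lay above WT without overlap. HSPA8 was also higher relative to its partners: the ratio to DNAJA1 was 6.39, 6.44 and 6.56 in KD 1, 2 and 3 and 4.27 in WT, and that to DNAJB1 was 18.0, 18.0 and 18.4 in KD 1, 2 and 3 and 8.53 in WT. The ratio to its exchange factor gene HSPH1 was 39.7, 39.7 and 43.0 in KD 1, 2 and 3 and 20.1 in WT. These 3 ratios were higher in every KD library, so HSPA8 differed by more than its partners. Within HSP90, HSP90AA1 to HSP90AB1 gave 0.933, 0.815 and 0.802 in KD 1, 2 and 3 and 0.504 in WT, and HSP90AA1 to HSP90B1 gave 2.35, 2.00 and 2.09 in KD 1, 2 and 3 and 0.840 in WT. These ratios restate the log2 differences given above. HSPA8, HSP90AA1 and CCT8 had the largest rises of their classes, so their ratios to other genes of the class had to be higher in KD. The smallest exact one-sided p for 3 libraries against 1 is 0.25, so no test is given.

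**Figure D5:**
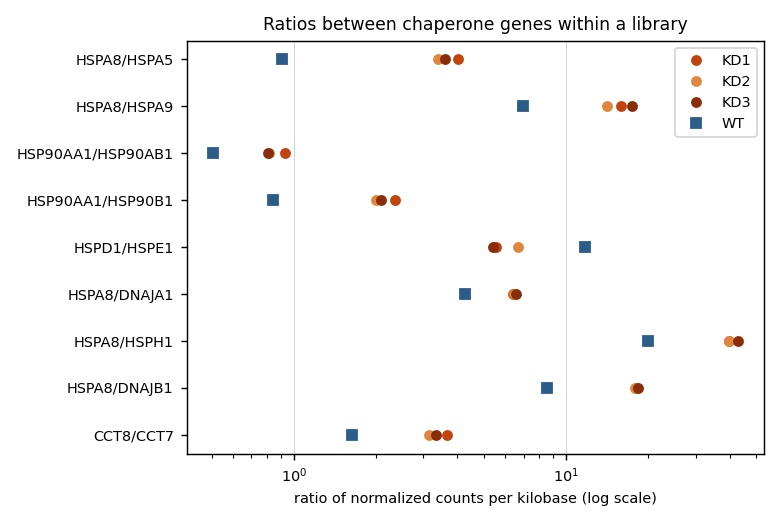
Ratios of normalized counts per kilobase between pairs of chaperone genes, with 1 point per library. The KD points stand above WT for the HSPA8, HSP90AA1 and CCT8 ratios shown and below it for HSPD1 to HSPE1.

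The 3 KD libraries were close to one another for these genes. The median coefficient of variation over the KD libraries was 7.45% for the 69 tested chaperone genes and 11.9% for all genes tested. This value depends on read level, for which these sets were not matched, so the gap is not read as a trait of chaperone genes. KD 2 was the lowest of the 3 for 42 of the 69 chaperone genes, KD 1 for 15 and KD 3 for 12. Over all genes tested, KD 2 was lowest for 38.6%. For TRiC, KD 2 was lowest in 8 of 9 genes, for HSP90 in 3 of 3 and for the mitochondrial chaperonin pair in 2 of 2. Even in KD 2 the median log2 difference from WT over the 69 genes was 1.03, with 1.10 in KD 1 and 1.16 in KD 3.

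Genes that work with the chaperones were read from 7 lists of 65 genes, of which 63 were tested, 54 called higher and 2 lower (log2 median 1.01). By the same test, 31.4% of all genes tested were called higher and 36.3% lower. Among protein-coding genes these shares were 45.9% and 24.7%. With equal library totals, 38 of the pathway genes were called higher and 10 lower. In the list of heat shock factors and their regulator, HSF1 measured 3722, 3666 and 3923 in KD 1, 2 and 3 and 2392 in WT (log2 difference 0.66 ± 0.10 (SE), limma adjusted p = 0.00138; 0.09 with equal library totals, adjusted p = 0.234, and 0.15 with the length trend removed, adjusted p = 0.143). HSF2 measured 1463, 1386 and 1636 against 532 (log2 difference 1.49, limma adjusted p = 0.000155), and HSBP1, a small protein that binds HSF1, 3033, 2590.0 and 3265 against 661 (log2 difference 2.16, limma adjusted p = 7.89e-05). HSF4, the factor of the lens, fell: 73.9, 77.7 and 64.5 in KD 1, 2 and 3 and 822 in WT (log2 difference -3.50 ± 0.24 (SE), limma adjusted p = 8.32e-05). HSF1 and HSF2 were above WT, and HSF4 below it, in every KD library.

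Among 17 HSP90 co-chaperones with the mitochondrial TRAP1, 15 were called higher (log2 median 1.16). SUGT1 (log2 difference -0.15) and TTC4 (-0.71), named after their values were seen, were not called. PTGES3, the co-chaperone p23, measured 18415, 15894 and 19674 in KD 1, 2 and 3 and 3454 in WT (log2 difference 2.38, limma adjusted p = 6.83e-05), and PPID 1018, 1008 and 1161 against 317 (log2 difference 1.74, limma adjusted p = 0.000107). Of 12 HSP70 co-chaperones including HYOU1, 9 were called higher (median 1.10), and BAG1 (log2 difference 0.17), SIL1 (-0.30) and HYOU1 (-0.31) were not called, the last 2 of them ER exchange factors of HSPA5. BAG2 measured 3431, 2765 and 3384 against 661 (log2 difference 2.26, limma adjusted p = 7.45e-05) and ST13 8547, 7998 and 9695 against 2722 (log2 difference 1.68, limma adjusted p = 0.000113). These 4 co-chaperones were named as the largest rises of their lists, so their KD values above WT follow from the choice. All 3 KD libraries lay above WT for 15 of the 17 genes and 10 of the 12. The shares were 40.0% of all genes tested and 55.7% of protein-coding genes.

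Prefoldin hands unfolded actin and tubulin to TRiC. Of its subunits and other TRiC helpers, 9 of 11 were called higher and 1 lower (log2 median 1.54), and PFDN2 was not called (log2 difference 0.34). VBP1 measured 4900.2, 3816 and 4595 in KD 1, 2 and 3 and 548 in WT (log2 difference 3.01 ± 0.15 (SE), limma adjusted p = 6.57e-05), and PFDN4 1207, 915 and 1143 against 143 (log2 difference 2.91, limma adjusted p = 7.03e-05). PFDN5 went the other way, at 285, 253 and 246 against 402 (log2 difference -0.62 ± 0.17 (SE), limma adjusted p = 0.0184), a call that was lost with DESeq2, with median-of-ratios scaling and without KD 2. VBP1, PFDN4 and PFDN5 belong to the same complex.

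In the ER folding list, 10 of 11 genes were called higher and PDIA6 was not (log2 difference 0.23; list median 0.65), and the list took 0.465%, 0.478% and 0.483% of all reads counted in KD 1, 2 and 3 and 0.459% in WT. With equal library totals the median was 0.09, with 2 genes called higher and 2 lower. MANF measured 3545, 3095 and 4070.0 against 1331 (log2 difference 1.41, limma adjusted p = 0.000418) and ERO1A 8594, 7978 and 8974 against 4387 (log2 difference 0.95, limma adjusted p = 0.000472). All 7 mitochondrial quality control genes were called higher (median 1.15), led by the protease subunits CLPP at 1888, 1851 and 1933 against 495 (log2 difference 1.93, limma adjusted p = 6.57e-05) and CLPX at 2967, 2746 and 2886 against 1049.6 (log2 difference 1.45, limma adjusted p = 8.14e-05). Of the alpha-crystallins, relatives of the small heat shock proteins, CRYAB measured 1399, 725 and 1393 against 221 (log2 difference 2.34 ± 0.37 (SE), limma adjusted p = 0.00192; 0.0701 with no filter on low values) and CRYAA had 0 reads in every library.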

How the data were processed

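Per the submitters' processing notes, the tools named were STAR 2.7.11b, featureCounts 2.0.6 and DESeq2, with the build hg38. The sources used here do not give the annotation release, the strand setting, how reads with several matches were treated or how the scaling factors were set. Per the labels, libraries were made after ribosomal RNA depletion with dUTP strand marking. Each library has 1 deposited column of signal, a normalized read count for every gene. In each library 100% of the deposited values were a whole number of steps (tolerance 0.001 reads). The authors' values are thus whole reads divided by factors of 1.06, 1.29 and 0.8995 (KD 1, 2 and 3) and 0.9003 (WT). The chaperone genes, gene lists and tests were chosen with earlier results of these data known.

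limma 3.58.1 in R 4.3.3 was fitted to log2(value + 1) of 23344 genes whose mean was 10 or more, two-sided, with Benjamini-Hochberg adjustment at 0.05. Such differences understate the change of low genes. Alternatives were edgeR 4.0.16 and DESeq2 1.42.0 on the recovered reads, 4 other scalings, a pseudocount of 5, a mean of at least 50, no filter, protein-coding genes only, removal of the trend on exonic length and leaving out each KD library. Positions, types and exonic lengths came from GENCODE 29, which held 95.1% of the tested genes. Named were all tested members outside the J-domain families, the 3 largest rises, 3 largest falls and 2 highest levels per kilobase in each of these families, HSF1, HSF2, and up to 2 called genes per direction in each other list. Ratios of few reads carry exact 95% conditional binomial intervals, and a floor of 3 reads stands for 0.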

Additional observations from a re-analysis of the deposited data

How the results depend on the processing

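The 53 chaperone genes called higher numbered 36 to 59 under the 14 alternatives, and 36 of the 53 were called higher under every one. All 5 genes called lower were called lower under every one. The chaperone genes called lower became 12 with upper-quartile scaling, 15 with equal library totals and 11 with the length trend removed. In the same order of settings, J-domain family B had 3, 3 and 5 genes higher and 3, 4 and 3 lower, with 2 lower at a pseudocount of 5 and 2 among protein-coding genes only. Family C had 7, 7 and 7 higher and 7, 9 and 5 lower. The other pathway genes had 8, 10 and 7 lower, 1 with DESeq2 and 1 with median-of-ratios scaling, and 1 to 2 when a KD library was left out. HSP70 had 2 genes lower with the length trend removed. Over all genes, equal totals gave 4701 higher and 12735 lower. A mean of at least 50 normalized counts gave 5086 lower and protein-coding genes only 3710 lower, both with fewer genes tested. The chaperone median of 1.11 was 1.23 with edgeR, 1.32 with DESeq2, 1.21 with TMM, 1.38 with median-of-ratios, 0.64 with upper-quartile scaling, 0.55 with equal totals, 1.03 with no filter, 0.60 with the length trend removed and 1.03 to 1.17 when a KD library was left out. HSPA5 turned to -0.011 with equal totals. DNAJB11 turned to 0.033 with DESeq2 and 0.13 with median-of-ratios scaling, and DNAJC11 to 0.065 and 0.16. Both were called lower with upper-quartile scaling (-0.62 and -0.58), equal totals (-0.71 and -0.68) and the length trend removed (-0.64 and -0.63). The cause was not tested. The median over all genes tested, a set that itself changes with the scaling, moved by 0.11 with TMM, 0.30 with median-of-ratios, -0.51 with upper-quartile and -0.61 with equal totals. Of 844 values of single genes, 815 kept direction and call, 12 gained a call (DNAJB13 5, DNAJB11 3, DNAJC11 3, HSPA12B 1), 12 lost it and 5 turned. No paired analysis was possible because WT has 1 library and shares only 1 number with KD.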
